A study of Mus musculus with 8 samples.

Results

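The integrin and laminin genes of the mouse trachea were described as a set of 34 genes among the 18193 genes measured. They were taken by symbol as every integrin alpha chain (symbols that begin with Itga), integrin beta chain (Itgb followed by 1 digit) and laminin chain (Lama, Lamb or Lamc followed by 1 digit), and each took its brightest probe set. Of the 34, 7 were grouped as leukocyte integrins, 6 as epithelial integrins, 11 as other integrins and 10 as laminin chains. Itgad and Itga11 were not analysed here. RNA came from the distal trachea and carina region of 8 female C57Bl/6 mice, 4 of them old (14 month) and 4 young (2 month), for which the labels name no treatment, with 1 mouse on each Affymetrix mouse genome array. The old mice carry the numbers 1, 2, 5 and 6 and the young mice 3, 4, 7 and 8. The comparison of old with young mice asks which transcripts of the aging trachea change.

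Integrins are receptors made of 1 alpha and 1 beta chain that hold cells to the extracellular matrix or to other cells. Each cell type carries its own pairs. Leukocytes carry pairs built on Itgb2 and Itgb7, with which they stick to vessel walls and to epithelial cells. Epithelial cells stand on the basement membrane through the pair of Itga6 and Itgb4 in hemidesmosomes. Laminins are the cross-shaped proteins of basement membranes, each made of an alpha, a beta and a gamma chain, and are ligands of several integrins. In the airway, Lama3 and Lamb3 are chains of the laminin under the epithelium, whereas Lama2 and Lama4 are typical of the basement membranes of muscle, nerve, fat and vessels.

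Signals are in the arbitrary linear units of the deposited table, and changes are log2 fold changes of old minus young mice from limma with standard errors (SE). An adjusted p is a Benjamini-Hochberg value over all 18193 genes. The arrays shared 1 trimmed mean, and their median signals lay between 150.0 and 161. All 14 airway epithelial and all 14 mesenchyme and vessel markers were measured. Among them the club cell product Scgb1a1 gave signals of 25658 to 31083 in old and 26941 to 30905 in young mice, and the basal cell factor Trp63 878 to 1023 in old and 881 to 1075 in young mice. The thyroid product Tg gave 134 to 229.7 in old and 44.5 to 177 in young mice, at 1.14 ± 0.42 (SE, adjusted p = 0.271). The muscle kinase Ckm gave 396 to 671 in old and 555 to 852 in young mice. The lung gene Sftpc gave 453 to 2986 in old and 539 to 1218 in young mice, with old mouse 6 far above all others. The part of lung tissue in the signals of that mouse was not tested. Of 11 measured markers of neighbouring tissue among 16 listed, 7 had positive and 4 negative log2 fold changes. By limma 0 passed an adjusted p under 0.05, and 2 were higher and 1 lower at an unadjusted p under 0.05. RNA of a whole tissue cannot tell fewer cells of a type from less RNA per cell. No detection call came with the table, and 30 of the 34 genes used probe sets brighter than the median probe set, whose mean signal was 151. Itgam, Itga2, Itgb6 and Lama1 used dimmer ones, where replicates spread more.

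Log2 fold changes were positive for all 7 leukocyte integrins and negative for 8 of 10 laminin chains, while 4 of 6 epithelial integrins were positive and 2 negative. Of the 34 genes, Itgb2 rose and Lama2 fell at an adjusted p under 0.05. The background was 0.368% of all genes higher and 0.181% lower. At an unadjusted p under 0.05, 6 of the 34 were higher and 8 lower, against 7.31% and 7.28% of all genes. All 6 higher genes were leukocyte integrins, and 6 of the 8 lower genes were laminin chains. The ages did not overlap in 10 of the 34, with all old mice higher in 3 and all old mice lower in 7, against 5.02% and 5.11% of all genes. Among all genes brighter than that median the shares were 6.13% and 6.58%. The median log2 fold change was 0.55 over the 7 leukocyte integrins, 0.022 over the 6 epithelial integrins, -0.12 over the 11 other integrins and -0.28 over the 10 laminin chains, beside -0.0047 over all genes. The laminin median was -0.15 when the probe sets of each gene were averaged. Of the 34, 17 values were positive and 17 negative, where 49.0% and 51.0% of all genes were. At a fold above 2 with an unadjusted p under 0.05, 0 of the 34 were higher and 0 lower, against 1.11% and 0.588% of all genes, and the log2 fold changes ran from -0.53 for Lama2 to 0.93 for Itgax.

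**Figure D1:**
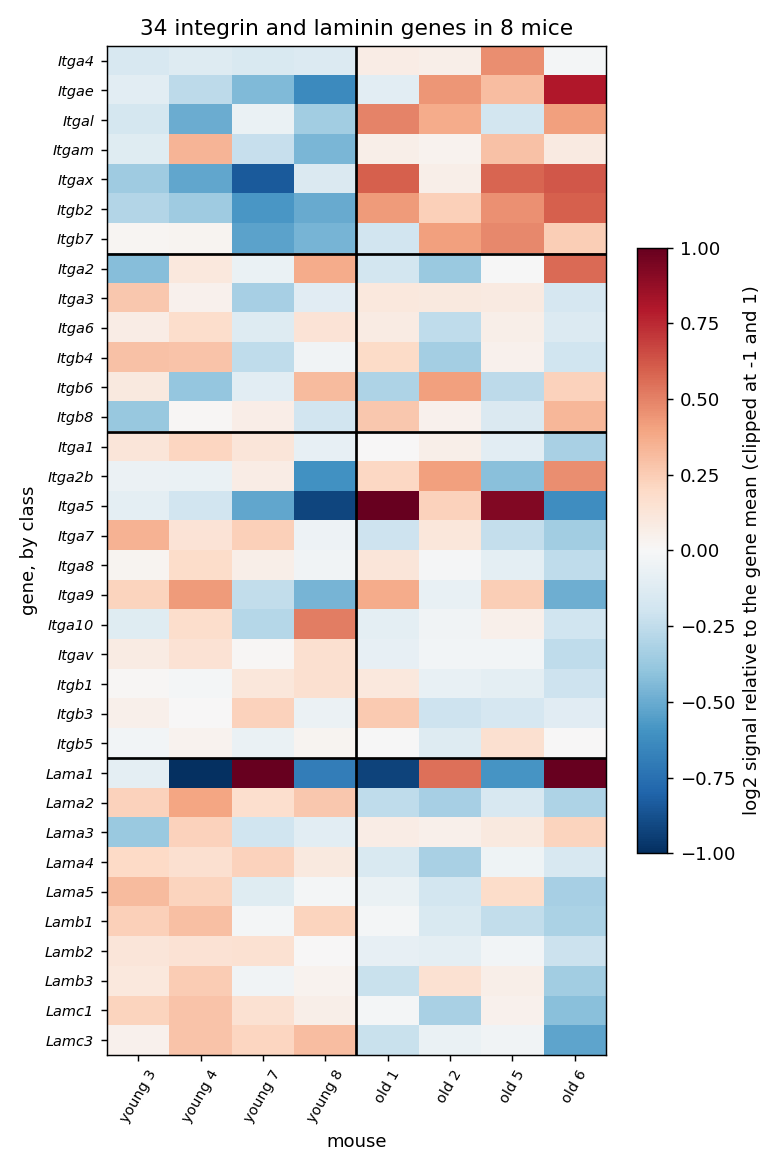
Log2 signal of the 34 genes in each of 8 mice relative to the mean of the gene, with colours clipped at -1 and 1, young mice on the left and old mice on the right, and black lines between the 4 classes. The 7 leukocyte integrins at the top are mostly red in old mice, and the laminin chains at the bottom mostly blue.

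**Figure D2:**
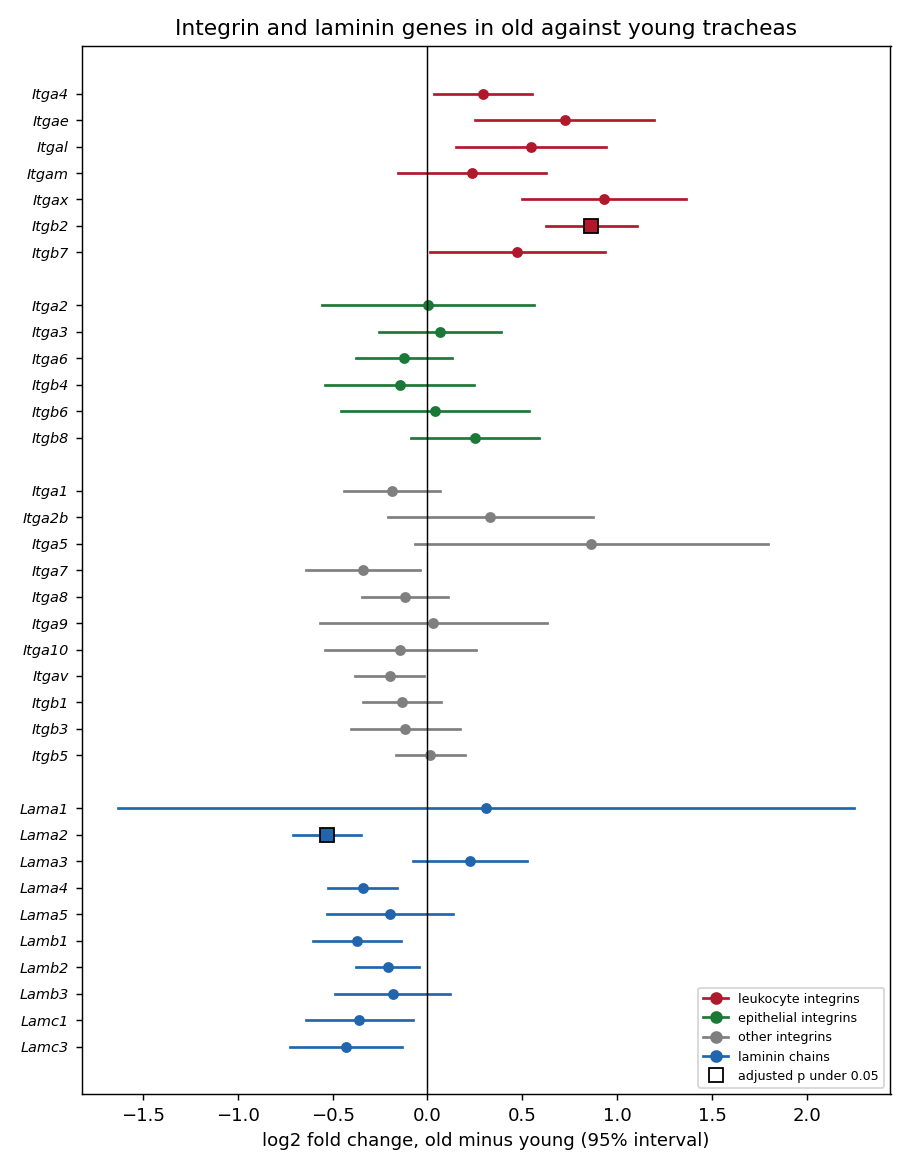
Log2 fold change of old minus young mice for each of the 34 genes by class, with lines for the 95% interval of limma and squares for an adjusted p under 0.05. All 7 leukocyte integrins lie to the right of 0, and 8 of 10 laminin chains to the left.

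Printed for the comparison are the 250 bases before a start site of Itgax, the leukocyte integrin with the highest log2 fold change, and of Lama2 and Lamb1, laminin chains whose old mice lay below their young mice. They are RefSeq sequences of GRCm38.p6, 5′ to 3′ on the strand of the gene, and capitals mark GAGGAA or its complement TTCCTC, the core of sites of the leukocyte factor PU.1, and GGGCGG or CCGCCC, the GC box.
Itgax promoter, chr7:128129300-128129549, strand +: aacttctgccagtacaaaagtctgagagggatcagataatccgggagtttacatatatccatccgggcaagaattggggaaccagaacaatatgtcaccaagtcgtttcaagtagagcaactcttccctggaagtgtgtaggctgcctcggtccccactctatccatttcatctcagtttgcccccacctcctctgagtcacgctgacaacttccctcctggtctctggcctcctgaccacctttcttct
Lama2 promoter, chr10:27616943-27617192, strand -: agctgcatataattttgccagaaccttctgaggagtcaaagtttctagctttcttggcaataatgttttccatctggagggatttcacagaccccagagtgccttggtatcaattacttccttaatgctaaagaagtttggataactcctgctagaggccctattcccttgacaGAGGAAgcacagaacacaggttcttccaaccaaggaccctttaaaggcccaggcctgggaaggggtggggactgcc
Lamb1 promoter, chr12:31265043-31265292, strand +: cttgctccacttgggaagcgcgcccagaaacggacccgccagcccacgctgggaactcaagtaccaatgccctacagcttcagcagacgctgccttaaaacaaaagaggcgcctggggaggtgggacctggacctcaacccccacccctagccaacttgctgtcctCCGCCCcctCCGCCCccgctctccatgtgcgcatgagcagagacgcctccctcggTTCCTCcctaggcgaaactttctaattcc
Among 25 such windows of 22 of the 34 genes, 12 held GAGGAA on either strand, 9 a GC box and 0 the letters TATAAA. The shares among all 32851 windows of that length were 23.3%, 32.7% and 12.4%. GAGGAA was found in 1 of 4 windows of leukocyte integrins, that of Itgam, and in 5 of 6 windows of laminin chains. The window of Itgax held none of the motifs, that of Lama2 held GAGGAA once, and that of Lamb1 held TTCCTC once and CCGCCC in 2 places that do not overlap. A match of 6 letters is a description of the sequence and not a bound site.

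Itgb2, the beta chain that all leukocyte integrins of the CD11 group share, rose in old tracheas. Itgb2 had signals of 825, 726, 843 and 930.1 in old mice 1, 2, 5 and 6 and 502, 481, 410.0 and 433 in young mice 3, 4, 7 and 8. The lowest old mouse lay well above the highest young mouse. Mean signals were 831 ± 83.8 (SD, n = 4) for the old group and 456 ± 42.2 (SD, n = 4) for the young group, which is 1.82-fold higher or 0.86 ± 0.10 (SE, adjusted p = 0.0286) on the log2 scale. Without any 1 of the 8 mice the log2 fold change stayed between 0.81 and 0.93, but the adjusted p then lay between 0.0513 and 0.0889, so that the call was lost in every case.

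The 3 measured alpha chains that pair with Itgb2 differed in size. Itgax, the CD11c chain of dendritic cells and some macrophages, had signals of 391, 270.4, 389 and 398 in old mice 1, 2, 5 and 6 and 202, 180.2, 145 and 235 in young mice 3, 4, 7 and 8. The ages did not overlap, and old mouse 2 was the lowest of its group. Its log2 fold change was 0.93 ± 0.19 (SE, adjusted p = 0.0841). Itgal, the CD11a chain found on most leukocytes, read 1158, 1063, 724 and 1094 in old mice 1, 2, 5 and 6 and 729, 583, 784 and 646 in young mice 3, 4, 7 and 8. Old mouse 5 overlapped the young group and the other 3 old mice lay above it. The log2 fold change of Itgal was 0.55 ± 0.17 (SE, adjusted p = 0.207). For Itgam, the CD11b chain of neutrophils, monocytes and macrophages, signals were dim at 129 to 155 in old and 92 to 160.0 in young mice, and the groups overlapped. Itgam had a log2 fold change of 0.23 ± 0.17 (SE, adjusted p = 0.579), and the 95% interval -0.16 to 0.62 holds 0.

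Within each array, Itgam relative to Itgb2 was lower in old mice, with a difference of -0.63 on the log2 scale and no overlap between the ages. Itgam itself was at 0.23, on a dim probe set, and Itgb2 at 0.86, so the lower ratio holds the rise of Itgb2. The ratio of Itgal to Itgb2 differed by -0.32 and that of Itgax to Itgb2 by 0.068, both with overlap between the ages. These ratios were not tested. They are descriptions of 4 mice per group.

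Itgae and Itgb7 form the pair by which T cells of epithelia hold to E-cadherin. Itgae had signals of 183, 267, 244 and 343 in old mice 1, 2, 5 and 6 and 183, 164, 145 and 127 in young mice 3, 4, 7 and 8. Old mouse 1 and young mouse 3 had nearly the same signal and the other old mice were higher than every young mouse. Its log2 fold change was 0.72 ± 0.20 (SE, adjusted p = 0.169). Itgb7 gave 184, 279.8, 293 and 249.6 in old mice 1, 2, 5 and 6 and 214, 214, 145 and 152 in young mice 3, 4, 7 and 8, with old mouse 1 inside the young range. The log2 fold change of Itgb7 was 0.47 ± 0.20 (SE, adjusted p = 0.329). Itga4 pairs with Itgb7 or Itgb1 and binds Vcam1 and Madcam1 on vessels. Its brightest probe set read 379, 376, 498 and 356 in old mice 1, 2, 5 and 6 and 322, 329, 324 and 328 in young mice 3, 4, 7 and 8, and all old mice lay above the narrow young range. The log2 fold change of Itga4 was 0.29 ± 0.11 (SE, adjusted p = 0.287), with old mouse 5 the highest, and 0.18 without that mouse.

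**Figure D3:**
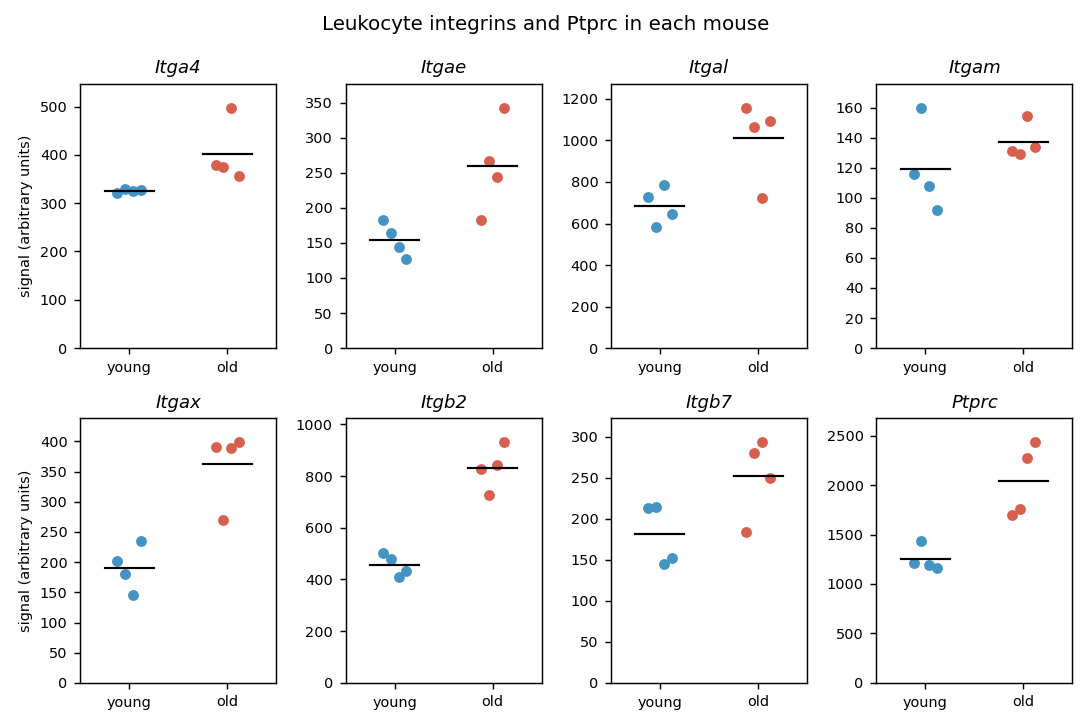
Signal in arbitrary units, on axes from 0, of the 7 leukocyte integrins and of Ptprc in each mouse, with young mice on the left and old mice on the right of each panel and a line for the mean of 4 mice. The ages do not overlap for Itga4, Itgax, Itgb2 and Ptprc.

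General leukocyte markers had higher signals as well. Of 20 measured markers of 24 listed, 19 had a positive log2 fold change, 0 passed an adjusted p under 0.05 by limma and 15 were higher at an unadjusted p under 0.05, with a median of 0.60. Their summed signal ran from 36574 to 43942 in old and from 33518 to 36503 in young mice, and no marker was listed at 0. Ptprc, which encodes the pan-leukocyte antigen CD45, read 1702, 1762, 2276 and 2432 in old mice 1, 2, 5 and 6 and 1208, 1433, 1188 and 1163 in young mice 3, 4, 7 and 8. All old mice were above all young mice, and the log2 fold change was 0.70 ± 0.14 (SE, adjusted p = 0.087). The neutrophil protein S100a9 was at 1.98 ± 0.33 (SE, adjusted p = 0.0575) and the monocyte receptor Cd14 at 0.41 ± 0.079 (SE, adjusted p = 0.0807). The ratio of Itgb2 to Ptprc within each array differed between the ages by 0.17 on the log2 scale, with an SD of 0.17 in old and 0.14 in young mice and with overlap. The part of these markers in the integrin signals was not tested.

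The ligands of leukocyte integrins lie on vessels, on epithelial cells and in plasma. Of 10 measured ligands of 11 listed, which include E-cadherin and a fibrinogen chain, 1 rose at an adjusted p under 0.05 and none fell, with a median log2 fold change of 0.11. Vcam1, which binds the pair of Itga4 and Itgb1 on endothelium, was the gene that rose. Vcam1 signals were 1466, 1535, 1337 and 1514 in old mice 1, 2, 5 and 6 and 952, 953, 767 and 757 in young mice 3, 4, 7 and 8, with a wide gap between the ages and a log2 fold change of 0.78 ± 0.11 (SE, adjusted p = 0.0345). Icam1, the ligand of the pairs of Itgb2 with Itgal and Itgam, read 1199 to 1535 in old and 836 to 1165 in young mice, without overlap, at 0.48 ± 0.14 (SE, adjusted p = 0.169). Fga, a fibrinogen chain, had dim signals of 11 to 36.4 in old and 3.34 to 25.8 in young mice and a log2 fold change of 1.54 ± 0.69 (SE, adjusted p = 0.365). Fermt3, the kindlin of blood cells that activates Itgb2, was the adaptor with the highest log2 fold change at 0.52 ± 0.13 (SE, adjusted p = 0.131), and its old mice were all above its young mice. Itgb2 and Vcam1 share the same 8 arrays, so their directions are not independent.

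Epithelial integrins showed no difference that passed the test, and on its brightest probe set no one of the 6 had an unadjusted p under 0.05 by limma. Itga6, the laminin-binding alpha chain of hemidesmosomes and of basal cells, had signals of 1998, 1587, 1972 and 1721 in old mice 1, 2, 5 and 6 and 1986, 2135, 1727 and 2076 in young mice 3, 4, 7 and 8. The ages overlapped and only old mice 2 and 6 were below every young mouse. Its log2 fold change was -0.12 (95% interval -0.38 to 0.13, adjusted p = 0.658). Itgb4, the beta chain that pairs only with Itga6, read 606, 419, 547 and 462 in old mice 1, 2, 5 and 6 and 650.2, 645, 444 and 518 in young mice 3, 4, 7 and 8. These groups overlapped as well, at a log2 fold change of -0.15 (95% interval -0.54 to 0.24, adjusted p = 0.747). The ratio of Itga6 to Itgb4 within arrays differed by 0.023 on the log2 scale.

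The other 4 epithelial integrins overlapped between the ages. Itga3, a laminin receptor of epithelial cells, gave 754 to 909 in old and 673 to 1019 in young mice, at 0.064 on the log2 scale (95% interval -0.26 to 0.39). Itgb8, which with Itgav binds latent TGF-beta, gave 355 to 494 in old and 301 to 411 in young mice, and its log2 fold change of 0.25 (95% interval -0.085 to 0.59, adjusted p = 0.475) was the highest of the class. Itga2, the collagen receptor of epithelia and platelets, was dim at 89.1 to 171 in old and 86 to 149 in young mice, and its interval ran from -0.56 to 0.56. Itgb6, the epithelial beta chain of an activator of TGF-beta, was dimmer still at 51.5 to 84.5 in old and 48.7 to 79.2 in young mice, with an interval of -0.46 to 0.54. With 4 mice per group these intervals hold changes of that size in either direction.

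Airway epithelial markers did not move one way. Of 14, 7 values were positive and 7 negative, with a median of 0.016 and 0 past an adjusted p under 0.05 by limma, while 4 were higher at an unadjusted p under 0.05. The basal keratin Krt5 was at 0.31 ± 0.094 (SE, adjusted p = 0.192) and the luminal keratin Krt8 at 0.33 ± 0.10 (SE, adjusted p = 0.181). Krt14, a keratin of basal cells, had dim signals of 57 to 222 in old and 13.4 to 48.3 in young mice and a log2 fold change of 2.21 ± 0.52 (SE, adjusted p = 0.118). Beside these, 3 of the 4 hemidesmosome partners had a negative log2 fold change. Col17a1, the transmembrane collagen of hemidesmosomes, read 261 to 361 in old and 379.9 to 591 in young mice, without overlap, at -0.61 ± 0.17 (SE, adjusted p = 0.172). The plakin Dst, which anchors keratin to Itgb4, was at -0.26 ± 0.10 (SE, adjusted p = 0.276), also without overlap, and the tetraspanin Cd151 at -0.12 ± 0.067 (SE, adjusted p = 0.451). None of the 4 passed an adjusted p under 0.05 by limma, and 2 were lower at an unadjusted p under 0.05.

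Laminin chains were lower in old tracheas in 8 of 10 cases, and the ages did not overlap in 6, namely Lama2, Lama4, Lamb1, Lamb2, Lamc1 and Lamc3. The background for such a gap was 5.11% of all genes. Lama2, the alpha chain of muscle and peripheral nerve laminins, was the chain that fell. Lama2 had signals of 922, 874, 985 and 890.3 in old mice 1, 2, 5 and 6 and 1293, 1447, 1239 and 1329 in young mice 3, 4, 7 and 8. The highest old mouse was below the lowest young mouse by a wide margin and both groups were tight. Mean signals were 918 ± 49.2 (SD, n = 4) for the old group and 1327 ± 88.3 (SD, n = 4) for the young group, a ratio of 0.692 or -0.53 ± 0.076 (SE, adjusted p = 0.0399) on the log2 scale. Without any 1 of the 8 mice it stayed between -0.57 and -0.49, but with adjusted p values between 0.0769 and 0.112, so that the call was lost each time. With low (1 to 4) and high (5 to 8) mouse numbers fitted as blocks the adjusted p was 0.0646, and when the probe sets of each gene were averaged it was 0.0557.

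Lama4, the alpha chain of vessel and fat basement membranes, gave 1691, 1502, 1822 and 1678 in old mice 1, 2, 5 and 6 and 2160.0, 2095, 2202 and 2009 in young mice 3, 4, 7 and 8. All old mice were below all young mice, and the log2 fold change was -0.34 ± 0.079 (SE, adjusted p = 0.115). Lama5, the broadly expressed alpha chain of epithelial and vessel basement membranes, gave 713 to 1017 in old and 825 to 1116 in young mice, with overlap, and a log2 fold change of -0.20 ± 0.14 (SE, adjusted p = 0.579). Lama3, the alpha chain of the laminin of hemidesmosomes, had a positive value. It read 247 to 279 in old and 184 to 280.1 in young mice, with overlap, at 0.22 ± 0.13 (SE, adjusted p = 0.479). Within arrays the ratio of Lama2 to Lama3 was lower in old mice, with a difference of -0.75 on the log2 scale and no overlap. That ratio was not tested. Lama1, mainly a chain of the embryo, had signals of only 4.69 to 26.5 in old and 2.8 to 31.9 in young mice, too dim for a fold change (log2 0.31, 95% interval -1.63 to 2.25).

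The beta and gamma chains that join Lama2, Lama4 and Lama5 had lower signals as well. Lamb1 read 1253, 1143, 1071 and 1020.1 in old mice 1, 2, 5 and 6 and 1501, 1568, 1257 and 1482 in young mice 3, 4, 7 and 8. Old mouse 1 lay just under young mouse 7, and the log2 fold change was -0.37 ± 0.10 (SE, adjusted p = 0.158). Lamc1, the gamma chain of most laminins, gave 1443, 1169, 1506 and 1099 in old mice 1, 2, 5 and 6 and 1706, 1789, 1625 and 1526 in young mice 3, 4, 7 and 8. The gap between old mouse 5 and young mouse 8 was narrow, and the log2 fold change was -0.36 ± 0.12 (SE, adjusted p = 0.236). Lamb1 relative to Lamc1 within arrays differed by -0.012 on the log2 scale, with an SD of 0.20 in old and 0.13 in young mice.

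Lamb2, the beta chain of synaptic, smooth muscle and kidney laminins, read 758, 752, 789 and 691 in old mice 1, 2, 5 and 6 and 874, 887, 895 and 805 in young mice 3, 4, 7 and 8. The step was small and the groups did not overlap, at a log2 fold change of -0.21 ± 0.072 (SE, adjusted p = 0.241). Lamc3, a gamma chain of restricted expression, gave 148, 165, 169 and 119 in old mice 1, 2, 5 and 6 and 178, 211, 200.4 and 214 in young mice 3, 4, 7 and 8, with a log2 fold change of -0.43 ± 0.13 (SE, adjusted p = 0.187). Lamb3, the beta chain of the epithelial laminin, overlapped at 454 to 643 in old and 564 to 689 in young mice, and its log2 fold change was -0.18 ± 0.13 (SE, adjusted p = 0.576). The ratio of Lamb1 to Lamb3 differed by -0.19, with overlap.

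**Figure D4:**
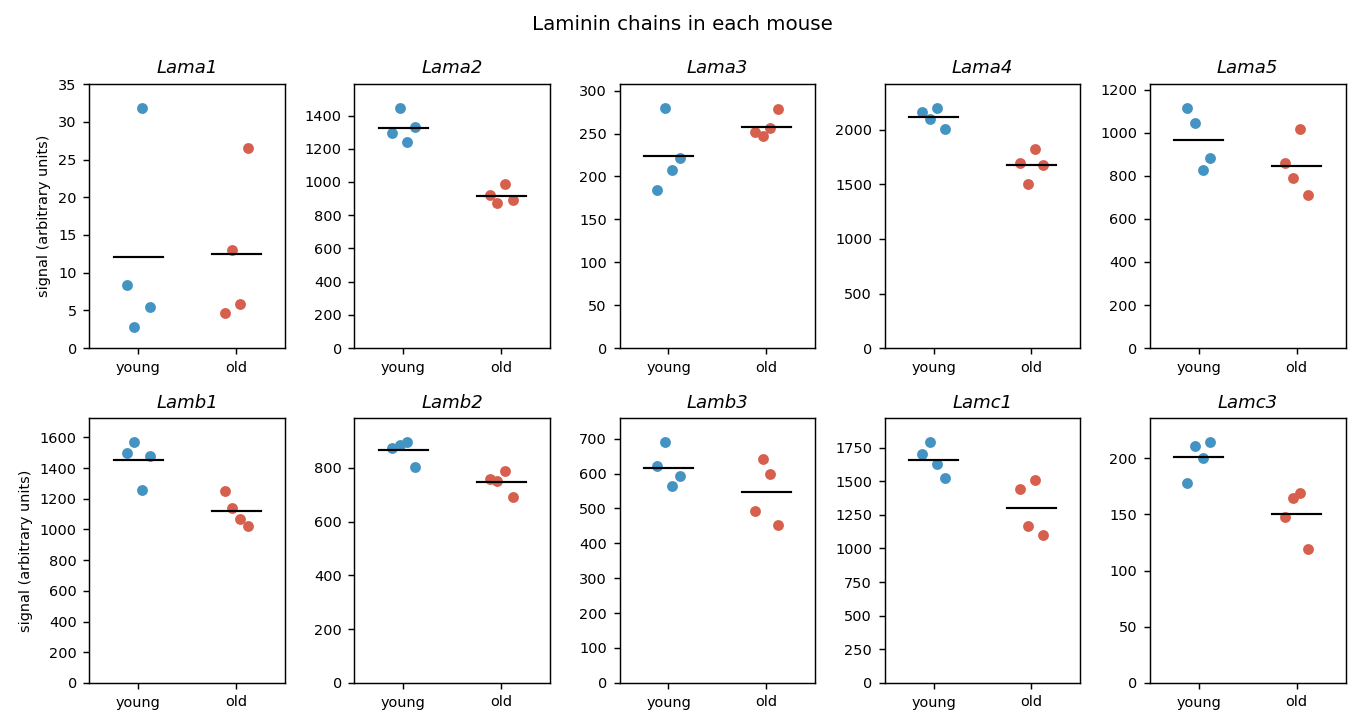
Signal in arbitrary units, on axes from 0, of the 10 laminin chains in each mouse, with young mice on the left and old mice on the right of each panel and a line for the mean of 4 mice. Every old mouse lies below every young mouse for Lama2, Lama4, Lamb1, Lamb2, Lamc1 and Lamc3.

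Of 14 mesenchyme and vessel markers, 12 had a negative log2 fold change, with a median of -0.12. None passed an adjusted p under 0.05 by limma, while 3 were lower and 1 higher at an unadjusted p under 0.05. Their summed signal was 99900.1 to 110470.3 in old and 106106 to 121877 in young mice, and none was listed at 0. Myh11, the smooth muscle myosin, was at -0.41 ± 0.10 (SE, adjusted p = 0.127), the pericyte receptor Pdgfrb at -0.31 ± 0.10 (SE, adjusted p = 0.199) and the cartilage proteoglycan Acan at -0.56 ± 0.17 (SE, adjusted p = 0.188), each with all old mice below all young mice. The ratio of Lama2 to Myh11 differed between the ages by -0.12 on the log2 scale, with an SD of 0.091 in old and 0.083 in young mice and with overlap. Myh11 had the lowest value of the muscle genes in this list. Acta2 was at -0.053, Cnn1 at -0.18 and Des at -0.25, each with overlap, and ratios of Lama2 to these were not taken. The skeletal muscle marker Ckm was at -0.46 ± 0.19 (SE, adjusted p = 0.337), with overlap. Their part in the laminin signals was not tested.

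Partners of laminin in the basement membrane had mostly lower signals. Of 16 genes, 14 had a negative log2 fold change, 1 fell at an adjusted p under 0.05, none rose, and 5 were lower at an unadjusted p under 0.05, with a median of -0.24. The gene that fell was Col4a6, a chain of the type IV collagen network of smooth muscle and some epithelia. Col4a6 read 815, 721, 793 and 814 in old mice 1, 2, 5 and 6 and 1343, 1176, 1200.5 and 1119 in young mice 3, 4, 7 and 8, with a clear gap and a log2 fold change of -0.62 ± 0.082 (SE, adjusted p = 0.032). Col4a5, which shares a network with Col4a6, was at 2792 to 3442 in old and 4181 to 5565 in young mice, without overlap, and at -0.69 ± 0.12 (SE, adjusted p = 0.0575). Nid1, the nidogen that bridges the gamma chain of laminin and type IV collagen, was at -0.30 ± 0.091 (SE, adjusted p = 0.193), also without overlap.

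The 11 other integrins gave no call at an adjusted p under 0.05 by limma. On the brightest probe sets, Itga7 and Itgav were lower at an unadjusted p under 0.05 and none was higher. Itgav pairs with several beta chains and binds vitronectin, fibronectin and latent TGF-beta. Its signals were 6039, 6254, 6265 and 5344 in old mice 1, 2, 5 and 6 and 6747, 7065, 6457 and 7134 in young mice 3, 4, 7 and 8. Every old mouse was below every young mouse, by a small step, and the log2 fold change was -0.20 ± 0.078 (SE, adjusted p = 0.299). Itga7, the laminin receptor of skeletal and smooth muscle, read 425, 532, 416 and 385 in old mice 1, 2, 5 and 6 and 626, 541, 579.6 and 473 in young mice 3, 4, 7 and 8. Old mouse 2 overlapped the young mice, at a log2 fold change of -0.34 ± 0.13 (SE, adjusted p = 0.286). Itgb1, the beta chain shared by most matrix receptors, had signals of 3083, 2718, 2682 and 2476 in old mice 1, 2, 5 and 6 and 2882, 2829.7, 3104 and 3208 in young mice 3, 4, 7 and 8. The groups overlapped, and the log2 fold change was -0.14 (95% interval -0.34 to 0.069, adjusted p = 0.528). The ratio of Itgb2 to Itgb1 within arrays was higher in old mice by 1.0 on the log2 scale, without overlap, and was not tested.

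Itga5, the fibronectin receptor chain, had the highest positive value of the class and the widest spread. Itga5 read 801, 412, 666 and 229 in old mice 1, 2, 5 and 6 and 329, 307, 244 and 186 in young mice 3, 4, 7 and 8. Old mice 1 and 5 were high and old mouse 6 lay within the young range, so its log2 fold change of 0.86 ± 0.40 (SE, adjusted p = 0.376) did not pass. Its range without single mice was 0.61 to 1.21.

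The collagen receptors Itga1 and Itga10, the latter a chain of chondrocytes, had log2 fold changes of -0.19 (95% interval -0.44 to 0.067) and -0.14 (95% interval -0.54 to 0.25). Itga8, the nephronectin receptor of smooth muscle and mesenchyme, was at -0.12 (95% interval -0.34 to 0.11). Itga9, a receptor for tenascin, was at 0.032 (95% interval -0.56 to 0.63). The beta chains that pair with Itgav overlapped between the ages, with Itgb3 at -0.12 (95% interval -0.40 to 0.17) and Itgb5 at 0.015 (95% interval -0.17 to 0.20). Itga2b, the platelet chain that pairs with Itgb3, was at 0.33 ± 0.23 (SE, adjusted p = 0.567), with signals of 168 to 310.0 in old and 148 to 237 in young mice. The 6 platelet markers, Itga2b among them, all had positive values, a median of 0.43, and 0 at an adjusted p under 0.05 by limma, with 1, Pf4, at an unadjusted p under 0.05. Pf4, a chemokine of platelet granules, was at 0.29 ± 0.092 (SE, adjusted p = 0.209), whereas Ppbp ranged from 31.4 to 1232 in old and 37.7 to 96.6 in young mice, with old mouse 5 below and old mouse 6 far above. The red cell enzyme Alas2 was also highest in old mouse 6, with 111 to 1084 in old and 28.3 to 127 in young mice. The part of blood cells in the signal of Itga2b was not tested.

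Ligands of these other integrins did not move one way. Of 14 measured of 19 listed, 5 had positive and 9 negative log2 fold changes, with 1 that rose and none that fell at an adjusted p under 0.05, and a median of -0.090. Thbs1, a matricellular ligand of several integrins, was the one that rose, at 1.58 ± 0.22 (SE, adjusted p = 0.0386). Emilin1, an elastic fibre protein bound by Itga4 and Itga9, read 313 to 368 in old and 395 to 566 in young mice, without overlap, at -0.41 ± 0.13 (SE, adjusted p = 0.203), and Tgfb3, whose latent form Itgav binds, was at -0.26 ± 0.11 (SE, adjusted p = 0.308). Among 22 measured adaptors of 24 listed, which couple integrin tails to actin, 9 had positive and 13 negative values, 0 passed an adjusted p under 0.05 by limma, and 1 was higher and 3 lower at an unadjusted p under 0.05. The talin Tln2 was at -0.65 ± 0.11 (SE, adjusted p = 0.0581) and the tensin Tns1 at -0.26 ± 0.085 (SE, adjusted p = 0.227), both with all old mice below all young mice.

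Of the 34 genes, 14 have 1 probe set and 20 have 2 to 6, and in 9 of the 20 the probe sets differ in sign. Over all 45037 probe sets, 0 of the 73 that belong to these genes passed an adjusted p under 0.05 by limma and 18 had an unadjusted p under 0.05, where 0.0711% and 11.2% of all probe sets did. Itgb2 and Lama2 each have 1 probe set, so their log2 fold changes are the same there. The moderated SE, the p and the number of tests differ. In that fit by limma the SE was 0.11 for Itgb2 (adjusted p = 0.0607) and 0.087 for Lama2 (adjusted p = 0.0981). Both probe sets of Itgal were positive, at 0.55 and 0.64, as were those of Itgae, at 0.72 and 0.45, and all 4 of Itga5, between 0.66 and 0.99. By limma, dimmer probe sets of Itga5 at 0.67, 0.99 and 0.66 had unadjusted p of 0.0027, 0.0497 and 0.149. Their adjusted p were 0.187, 0.447 and 0.604. Itga4 ranged from -0.60 on a probe set with a mean signal of 9.78 to 1.12 on one with a mean signal of 112. All 4 probe sets of Lamb1 were negative. The second probe sets of Lamc1, at 0.12, and of Lamc3, at 0.29, were positive, and that of Lama4 was at -0.054. For Lamc3 both probe sets were of like brightness, with mean signals of 173 and 161, so its direction depends on the probe set. A dim probe set of Itgb6, with a mean signal of 31.8, was at 1.73 (unadjusted p = 0.0078 and adjusted p = 0.261 by limma). The brightest one of Itgb6, itself dim at a mean signal of 63.6, was at 0.040. With its probe sets averaged Itgb6 was at 0.88 (adjusted p = 0.184 by limma), so its value depends on the probe set.

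**Figure D5:**
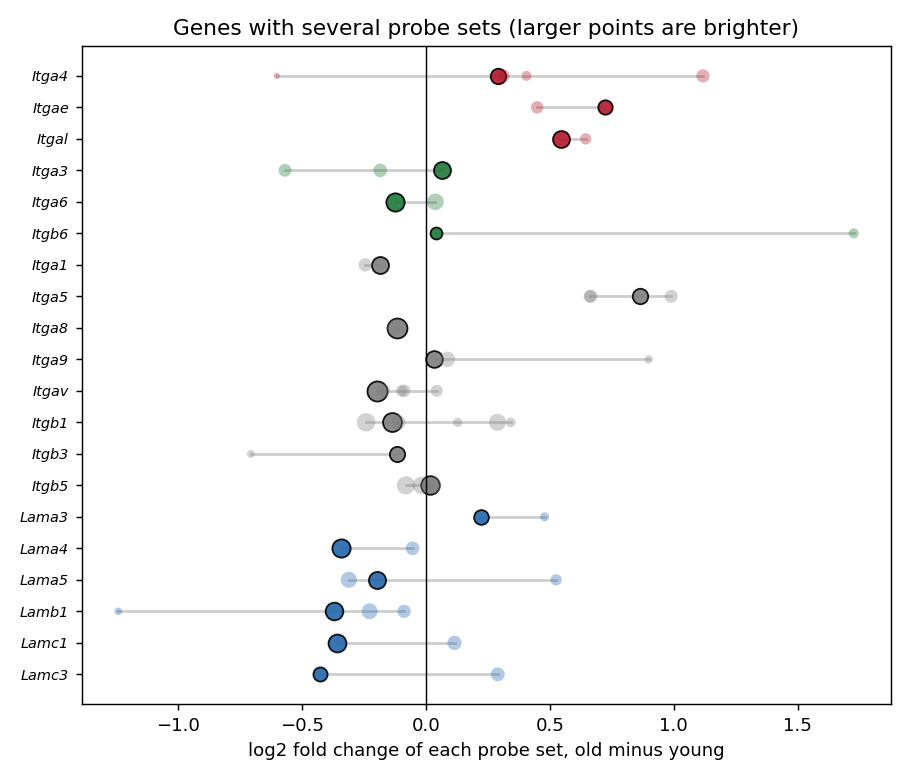
Log2 fold change of old minus young mice for each probe set of the 20 genes with more than 1, with larger points for brighter probe sets, a black edge for the brightest of each gene and colours by class. Probe sets of Itgal, Itgae and Itga5 lie to the right of 0, those of Lamb1 to the left, and those of Lamc1 and Lamc3 on both sides.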

How the data were processed

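Total RNA of 8 mice was hybridised to 8 arrays. The deposited intensity values are a linear signal per probe set, and the labels name Partek. Robust multichip analysis, which normally gives log2 values, is named in the authors' methods. The table is linear and each array has a 2% trimmed mean of 500.002, as when arrays are scaled one by one, so how it was made is not settled. It has 45101 probe sets without detection calls. Signals were taken to log2 without filter, and 64 control probe sets were left out. By the platform annotation 34945 probe sets have 1 symbol, 932 several and 9160 none. The probe set with the highest mean log2 signal stood for each of 18193 genes.

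The ages were tested in limma 3.58.1 with lmFit and eBayes, two-sided, under R 4.3.3 on all 8 arrays with age as the only factor, since the second factor of the authors' analysis of variance is not named. The steps were tested on simulated data. Every integrin and laminin gene analysed is named. Values in every mouse are given for genes without overlap or with an unadjusted p under 0.05 and for Itgb1, Itga6, Itgb4 and Itgb2. Of each other list, genes at an adjusted p under 0.05 and the 3 with the smallest p are named. Scgb1a1, Trp63 and Sftpc are named as tissue markers, further B cell, T cell and macrophage markers beside Ptprc, and Acta2, Cnn1 and Des beside Myh11. The members and lists were chosen with earlier results of these data known. The alternatives were each mouse left out, other error models, scalings, probe set choices, floors of 32 and 64 and a block of mouse numbers. The number of arrays limits the precision. The median SD of log2 signal within an age was 0.16 for probe sets brighter and 0.49 for those dimmer than the median probe set. P-values set the difference between the ages against the spread between mice within an age, which eBayes moderates over all genes.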

Additional observations from a re-analysis of the deposited data

Results flagged for a closer look

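In 3 of 126 groups of 4 mice (63 genes at 2 ages), 1 mouse stood apart from the other 3 by Dixon's ratio test at its 95% level, where chance gives about 1 in 20. Itgax was lowest in old mouse 2, at 270.4 where the other old mice were at 389 to 398, and that mouse still lay above every young mouse. Itga3 was lowest in old mouse 6, at 754 against 898 to 909. The basal keratin Krt5 was lowest in young mouse 7, at 1465 against 1681 to 1721.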

How the results depend on the processing

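No paired analysis was possible because old and young mice share no replicate number in the labels. Of the 34 genes, 1 passed the adjusted p upwards and 1 downwards, and without any 1 mouse these counts were 0 to 0 and 0 to 0, where limma had fewer samples. Over all genes the counts without 1 mouse were 8 to 24 higher and 3 to 24 lower, beside 67 and 33 with all mice. With a trended and robust prior, and likewise without the probe sets dimmer than the median, 2 of the 34 were higher (Itgb2 and Itgax) and 2 lower (Lama2 and Lama4). The counts over all genes rose too, to 270 higher and 217 lower with that prior. Without the dimmer probe sets they were 237 higher and 205 lower of 11872 genes. Of the 34, lower genes numbered 0 with low (1 to 4) and high (5 to 8) mouse numbers fitted as blocks and 0 when the probe sets of each gene were averaged, and the cause was not tested. By unadjusted p the counts were 6 higher and 8 lower, and 0 and 0 where a fold above 2 was also asked. Itgb2 passed in all 11 settings that left out no mouse and Lama2 in 9 of them. The floors, the averaging and the filter on cross-hybridising probe sets could not change the signals of these 2 genes. In those settings only the other genes differed, so they are not separate checks of Itgb2 and Lama2.

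The median log2 fold change without 1 mouse was 0.50 to 0.70 for leukocyte integrins, -0.066 to 0.083 for epithelial integrins, -0.18 to -0.089 for other integrins and -0.32 to -0.23 for laminin chains. With averaged probe sets the laminin median was -0.15. Medians were not taken without the dimmer probe sets, which hold 4 of the 34 genes. Some genes, none of them past the test, changed sign. With averaged probe sets these were Itga3 at -0.23, Itgb1 at 0.045, Itgb5 at -0.014 and Lama5, at -0.20 on its brightest probe set, at 0.0050. Itgb5 was at -0.081 without probe sets marked for cross-hybridisation, and Itga2 at -0.018 with array weights and -5.95e-05 with quantile normalization. Without 1 mouse the ranges that include both signs were -0.19 to 0.13 for Itga2, -0.035 to 0.16 for Itga3, -0.090 to 0.15 for Itgb6, -0.12 to 0.20 for Itga9, -0.26 to 0.0027 for Itga10, -0.035 to 0.059 for Itgb5 and -0.20 to 0.97 for Lama1. Every mouse was under both floors for Lama1. Dim signal limits Itgam, Itga2, Itgb6 and Lama1.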
